A study of Mus musculus with 34 samples.

Results

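Forkhead genes encode transcription factors that share a winged-helix DNA-binding domain and are named Fox with a class letter and a number. They were taken as every gene symbol in the deposited peak tables that begins with Fox, a letter from a to s and a digit. This gave 38 of the 18835 symbols in those tables. A gene was placed where at least 2 peaks agreed on the point from which the authors had measured distances, and 33 of the 38 forkhead symbols (86.8%) were placed, beside 16001 of all symbols (85.0%). Foxf1a, Foxh1, Foxl2, Foxp3 and Foxr1 had 1 peak each and no point, and forkhead genes under no symbol of the tables, such as Foxc2, were not analysed here. At 10 of the 33 points (30.3%, 26.2% of other genes), those of Foxa2, Foxd4, Foxf2, Foxi1, Foxi2, Foxk1, Foxl1, Foxn1, Foxo6 and Foxp1, no H3K4me3 region lay within 1 kb in limb or forebrain, so a point need not be the start in use. For Foxp1 the point with most peaks was used, and another of its points lay inside H3K4me3 regions of both tissues. That other point lies beside the point of Foxp1a, a symbol with no RefSeq match. Foxp1a is counted as a member of its own, so the Foxp1 gene enters the 33 under both symbols. Counts below are rows, that is deposited peaks or regions, within 100 kb of a point, set beside the other 15968 placed genes.

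Class A forkhead proteins open compacted chromatin in endoderm and the floor plate of the neural tube. Classes C, D, F, L and Q include regulators of mesenchyme, vessels, kidney stroma and neural crest, and class B genes act in the developing brain. Class O, K and M genes and Foxj2, Foxj3, Foxn2 and Foxn3 are more broadly expressed, and several are tied to insulin signalling, metabolism and the cell cycle. Many developmental regulators of this kind are held by Polycomb, whose mark is trimethylation of lysine 27 on histone H3 (H3K27me3), in tissues that do not use them.

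Chromatin was immunoprecipitated with an anti-FLAG antibody from 129/C57BL/6 mouse tissue of embryonic day 11.5, pooled from about 150 or 300 embryos, and from embryonic stem cells (ESC). SMARCA4, the ATPase of the SWI/SNF remodelling complex, was mapped in ESC and in heart, limb, face and 4 parts of the nervous system (neural tube, hindbrain, midbrain and forebrain). SMARCC2, another subunit of that complex, was mapped in face and hindbrain, the acetyltransferase EP300 in face and ESC, and NCOA1 and NCOA2, coactivators of nuclear receptors, in hindbrain. Per the labels, all FLAG samples and their controls carry a FLAG knock-in allele named for SMARCA4, also where another protein is the target. Histone marks came from limb and forebrain of CD1 embryos, with H3K4me1, H3K4me3 (active gene starts) and H3K27me3 in both and H3K27ac (active elements) in limb alone. Every group is 1 library of pooled tissue, so no difference has a replicate check, no p-value is given, and 95% intervals, exact Poisson for means and exact binomial (Clopper-Pearson) for shares, cover counting error only. No cell type could be checked by its markers, since peaks do not measure expression.

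The 14 FLAG lists hold between 1414 and 35099 rows, and library depth is unknown. Median row width ranged from 144 bp in EP300 ESC to 3100 bp in SMARCA4 forebrain. It was 2250 bp in SMARCA4 neural tube, and a wide row reaches a gene start more easily than a narrow one. Of the 6 controls, those of SMARCA4 midbrain and EP300 face are large, with 19772 and 28895 rows, and lie at most gene starts. Not analysed here were the SMARCA4 controls of neural tube, limb, forebrain and heart. For SMARCA4 in hindbrain the title was followed, although its tissue tag reads forebrain. In whole tissue, a peak held by few cells and a weak peak held by many cannot be told apart.

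H3K27me3 was more extensive around forkhead genes than around other genes. Within 10 kb of the point, a window of 20000 bp, the mean length covered was 8673 bp in limb and 5485 bp in forebrain. The corresponding means over other placed genes were 1785 and 687 bp, so the ratios were 4.86 and 7.98. The median forkhead gene had 7022 bp in limb and 2779 bp in forebrain, and the median other gene had 0 in both. The limb list covers more of the genome than the forebrain list, 45.8 against 19.1 Mb, and its longest region is 141603 bp against 56953 bp, so a longer length in limb is not by itself a difference between the tissues.

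At least 5000 bp of H3K27me3 lay around 14 of 33 forkhead genes (42.4%) in limb and forebrain alike, beside 2.74% of other genes. They included Foxa1, Foxa2, Foxb1, Foxb2, Foxc1, Foxd1, Foxd3, Foxd4, Foxe1, Foxf2, Foxl1, Foxn4 and Foxq1. Foxi2, Foxj1, Foxo6 and the transcript named Foxp1a reached 5000 bp in limb alone (12.1% of members, 10.4% of other genes), and Foxd2 in forebrain alone (3.03%, 0.401% of other genes). The remaining 14 stayed under 5000 bp in both tissues, and 10 of these are broadly expressed class J, K, M, N or O genes. Forkhead genes also stood near the top of the authors' own ranking, in which 1 was taken as best. Among the 200 best-ranked regions, one lay within 10 kb of 7 forkhead genes in limb (21.2%, 1.51% of other genes) and of 8 in forebrain (24.2%, 1.17%).

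**Figure D1:**
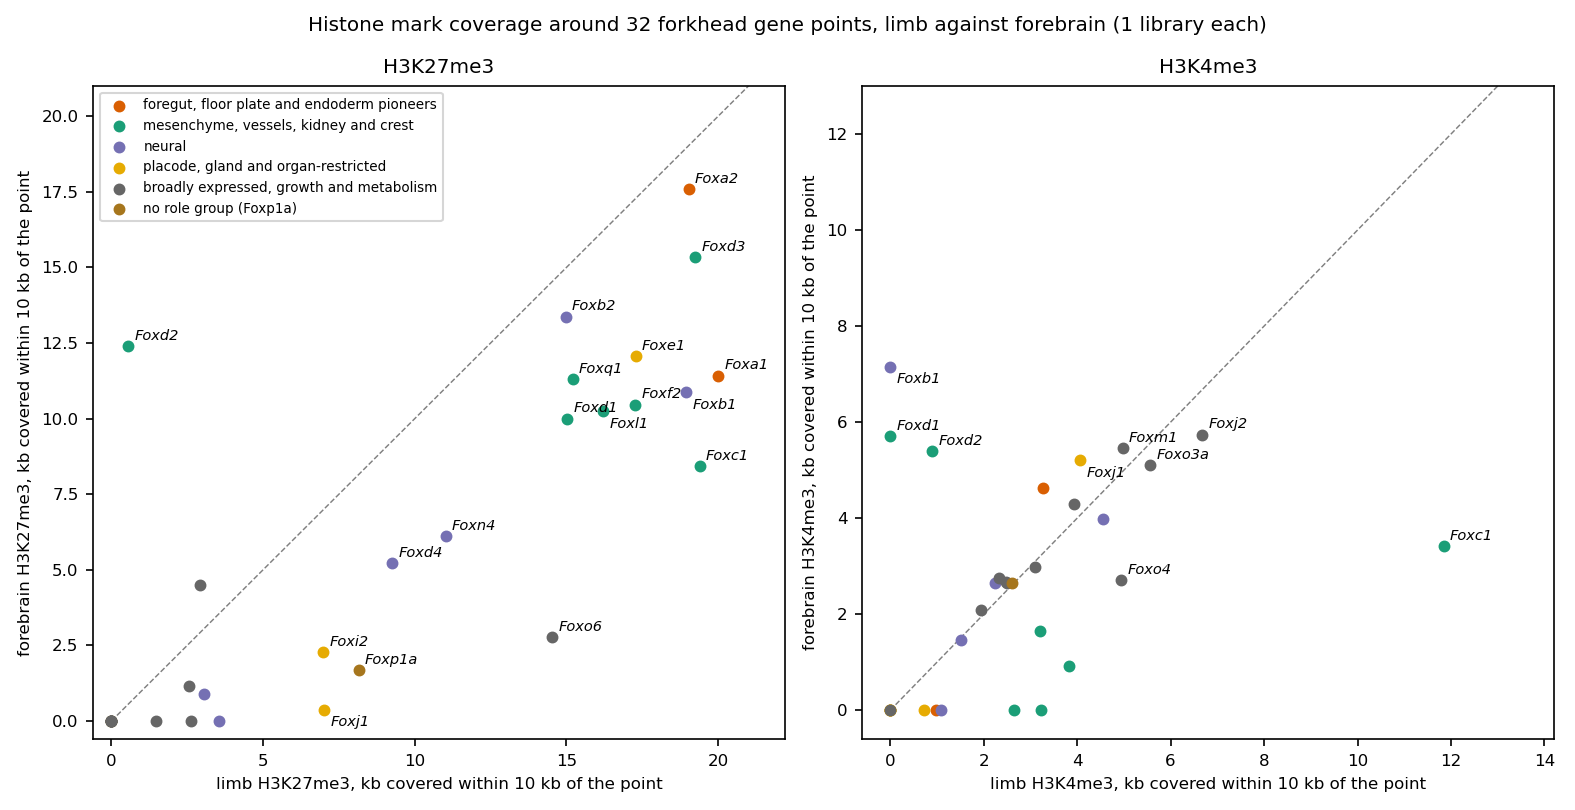
Length in kb covered by H3K27me3 (left) and H3K4me3 (right) within 10 kb of each of 32 forkhead points, limb on the horizontal and forebrain on the vertical axis, coloured by role group, with the dashed line marking equal lengths. Foxd2 lies far above the dashed line of the H3K27me3 panel with 561 bp in limb and 12409 bp in forebrain, and Foxb1 and Foxc1 lie on opposite sides of the H3K4me3 panel.

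The role groups, which hold all placed members but Foxp1a, differed in this coverage, where 13.1% of other genes reached 5000 bp in limb and 3.14% in forebrain. Both placed pioneer genes were covered, Foxa1 by 20000 bp in limb and 11423 bp in forebrain, and Foxa2 by 19033 and 17581 bp. Of the 7 genes of mesenchyme, vessels, kidney and crest, 6 reached 5000 bp in limb and all 7 in forebrain, with group means of 14699 and 11173 bp. Of the 7 neural genes, 5 did so in each tissue, with means of 11542 and 6993 bp. In the group of placode, gland and other organ-restricted genes, 3 of 5 did so in limb and 1 in forebrain. Of the 11 genes grouped as broadly expressed, 1 did so in limb and 0 in forebrain, with means of 2188 and 766 bp and medians of 0 in both. That gene was Foxo6, a FoxO gene of brain placed in this group by its class. Its 14529 bp in limb weighed heavily on the limb mean.

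Set beside families of developmental regulators, forkhead genes lay between Tbx and Pax genes on one side and Sox genes on the other in limb. The mean covered length in limb was 15113 bp for 10 placed Tbx genes, 18187 bp for 7 Pax genes and 7923 bp for 17 Sox genes. In forebrain it was 10334, 10138 and 3962 bp. Genes upstream of FoxO proteins, such as Insr and Akt1, were nearly free of the mark, with means of 397 bp in limb and 176 bp in forebrain over 17 placed genes. Of these 17, 1 (Sgk3) reached 5000 bp in limb and 0 did in forebrain. The 14 placed genes of hedgehog signalling, which acts upstream of several forkhead genes in embryos, had means of 4458 and 2399 bp, and 4 (Shh, Ihh, Dhh and Ptch1) reached 5000 bp in limb and 2 (Shh and Dhh) in forebrain, beside the same 13.1% and 3.14% of other genes.

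The H3K4me3 lists of limb and forebrain differed at single genes. Foxb1, active in hindbrain and hypothalamus, was under a limb region of 23152 bp with 0 bp of limb H3K4me3. In forebrain the H3K27me3 around Foxb1 left a gap of 8372 bp over the point. Forebrain H3K4me3 covered 7156 bp of the window, in regions of 3672, 1868 and 1616 bp. The region of 1868 bp lay in the gap, that of 3672 bp partly so, and that of 1616 bp lay under H3K27me3. Foxd1, a gene of kidney stroma, hypothalamus and retina, had 0 bp of H3K4me3 in limb and 5706 bp in forebrain. At Foxd1 the H3K27me3 length was 15020 bp in limb and 10000 bp in forebrain. H3K4me3 was thus longer in forebrain by at least 2000 bp at 4 genes (12.1%, 2.85% of other genes), Foxb1, Foxd1 and Foxd2 among them.

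Foxc1 showed the opposite H3K4me3 order. This gene of mesenchyme and vessels had 11843 bp of H3K4me3 in limb, most of it in 1 region of 8158 bp over the point, and 3417 bp in forebrain. Foxc1 also had 1645 bp of limb H3K27ac in the window, although 19396 bp of the same window lay under limb H3K27me3. In all, 5 forkhead genes (15.2%, 2.76% of other genes) had at least 2000 bp more H3K4me3 in limb. Foxd2, a gene of limb and facial mesenchyme, had no limb H3K27me3 over its point. Its nearest limb region lay 9439 bp away, whereas forebrain regions of 4158 and 8251 bp flanked the point and held ranks 180 and 116 of 11073. It was the only member with at least 5000 bp more H3K27me3 in forebrain (3.03%, 0.213% of other genes). With the larger limb list, 11 members had at least 5000 bp more in limb (33.3%, 7.78% of other genes). Whether marks that overlap in bulk tissue sit in the same cells was not tested.

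The forebrain list was often interrupted at the gene start itself. Of the 33 points, 23 lay inside a limb H3K27me3 region (69.7%, 22.7% of other genes) and 4 inside a forebrain region (12.1%, 3.71%). The limb mark without the forebrain mark lay over the points of Foxa1, Foxa2, Foxb1, Foxb2, Foxc1, Foxd1, Foxd3, Foxe1, Foxf2, Foxi2, Foxj1, Foxj2, Foxn4, Foxo3a, Foxo4, Foxo6, Foxp1, Foxp1a and Foxp2, and no point had the forebrain mark alone. Within 1 kb of the point, however, a forebrain region lay at 19 (57.6%, 17.4% of other genes). Among the 14 genes with at least 5000 bp in both tissues, which that length selected, the limb mark covered every point and the forebrain mark covered 4, Foxd4, Foxl1 and Foxq1 among them. Gaps in the forebrain mark over the point ranged from 1223 bp at Foxa2 to 8372 bp at Foxb1. The same shape was seen at other genes chosen alike, where 36.5% of 438 points were covered in forebrain and 93.8% in limb.

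**Figure D2:**
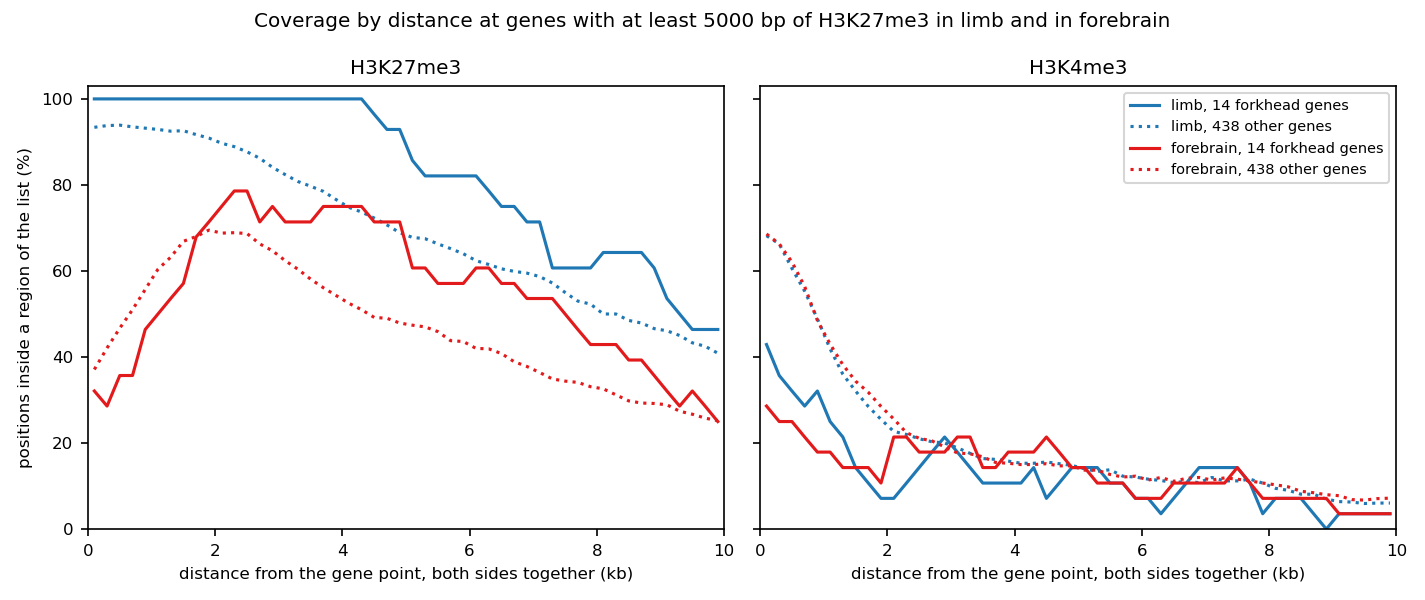
Share of positions inside a region of each list by distance from the gene point, both sides together in bins of 200 bp, for 14 forkhead (solid) and 438 other genes (dotted) chosen by at least 5000 bp of H3K27me3 in limb and in forebrain. The forebrain H3K27me3 curve of forkhead genes starts at 32.1% and is at 75.0% near 2 kb, whereas the limb curve covers every position there, and the forkhead H3K4me3 curves start lower than those of other genes.

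The share of forkhead starts under H3K4me3 was below that of other starts by more than its interval in forebrain only, and barely so. A region lay over 18 of 33 points in limb (54.5%, interval 36.4 to 71.9%, 70.4% of other genes) and over 17 in forebrain (51.5%, 33.5 to 69.2%, 69.5% of other genes). In the better part of each list it lay over 39.4% in limb (22.9 to 57.9%, 55.8% of other genes) and 27.3% in forebrain (13.3 to 45.5%, 48.6%). The 10 points with no H3K4me3 within 1 kb in either tissue are counted here. By length the order was the other way, with a mean within 10 kb of 2620 bp against 2231 bp in limb (ratio 1.17) and 2758 against 2329 bp in forebrain (1.18). H3K27ac lay over 10 in limb (30.3%, 15.6 to 48.7%, 50.1% of other genes). These 10 were Foxj1, Foxj2, Foxj3, Foxm1, Foxn2, Foxn3, Foxo1, Foxo3a, Foxo4 and Foxp2, so 8 of the 10 are broadly expressed genes. In limb, H3K4me3 and H3K27me3 lay over the same point at 12 genes (36.4%, 18.8% of other genes), and in the better part of both lists at 5 (15.2%, 7.32%). In forebrain this was so at 0 of 33 (2.81% of other genes), where 0 allows up to 10.6%. H3K27me3 within 1 kb with no H3K4me3 was seen at 9 genes in limb (27.3%, 3.58%) and 12 in forebrain (36.4%, 2.04%).

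The sequence at these starts was looked up in RefSeq promoters of build GRCm38.p6, from 250 bases before to 50 after the start, which matched 23 of the 38 symbols. These coordinates are of another build than the mm9 peaks and were not joined to them. Polycomb-marked and active starts of mammals are often rich in CG dinucleotides, so the promoters below show 2 genes with long H3K27me3 in both tissues (Foxc1, Foxd3), 1 with it in forebrain alone (Foxd2), 1 with SMARCA4 at its start in 5 lists (Foxj3) and 1 with neither (Foxn1). Capitals mark every CG.
Foxc1, chr13:31806396-31806695, plus strand: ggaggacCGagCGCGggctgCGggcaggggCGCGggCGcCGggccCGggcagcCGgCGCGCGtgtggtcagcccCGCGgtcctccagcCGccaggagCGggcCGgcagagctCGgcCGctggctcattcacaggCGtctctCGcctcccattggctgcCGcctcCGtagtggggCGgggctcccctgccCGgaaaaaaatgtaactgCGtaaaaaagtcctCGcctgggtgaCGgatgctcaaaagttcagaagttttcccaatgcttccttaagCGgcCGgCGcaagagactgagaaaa
Foxd3, chr4:99656049-99656348, plus strand: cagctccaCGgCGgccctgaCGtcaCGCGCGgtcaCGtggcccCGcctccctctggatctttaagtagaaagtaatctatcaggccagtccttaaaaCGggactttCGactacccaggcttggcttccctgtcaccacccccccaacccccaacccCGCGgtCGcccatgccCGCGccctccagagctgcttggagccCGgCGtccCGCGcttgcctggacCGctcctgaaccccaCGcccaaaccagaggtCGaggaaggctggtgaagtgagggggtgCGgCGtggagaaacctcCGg
Foxd2, chr4:114908849-114909148, minus strand: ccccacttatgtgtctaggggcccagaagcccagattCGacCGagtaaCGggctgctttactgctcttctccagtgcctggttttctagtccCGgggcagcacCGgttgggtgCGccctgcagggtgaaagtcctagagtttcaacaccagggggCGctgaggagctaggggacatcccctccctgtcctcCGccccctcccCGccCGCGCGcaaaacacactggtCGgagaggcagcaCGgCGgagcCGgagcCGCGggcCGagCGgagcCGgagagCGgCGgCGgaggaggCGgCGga
Foxj3, chr4:119539411-119539710, plus strand: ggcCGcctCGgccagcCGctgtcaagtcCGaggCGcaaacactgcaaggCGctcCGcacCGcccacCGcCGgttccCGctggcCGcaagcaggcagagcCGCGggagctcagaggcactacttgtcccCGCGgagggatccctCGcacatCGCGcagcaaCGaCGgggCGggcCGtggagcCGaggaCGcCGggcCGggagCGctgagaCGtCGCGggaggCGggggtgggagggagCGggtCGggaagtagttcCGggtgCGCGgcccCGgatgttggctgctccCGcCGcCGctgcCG
Foxn1, chr11:78386559-78386858, minus strand: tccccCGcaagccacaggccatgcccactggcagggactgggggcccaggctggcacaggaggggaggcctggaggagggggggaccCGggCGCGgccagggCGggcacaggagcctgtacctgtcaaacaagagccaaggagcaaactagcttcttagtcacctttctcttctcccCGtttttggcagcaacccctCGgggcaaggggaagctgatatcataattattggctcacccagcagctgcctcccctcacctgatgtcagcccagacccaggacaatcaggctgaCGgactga
Foxc1 has 32 CG in its 300 bases, Foxd3 25, Foxd2 26, Foxj3 42 and Foxn1 8. Where a symbol had several promoters, such as Foxa2 and Foxp1 with 3 each, the one with the most CG was taken. The median over 23 forkhead promoters was 25. Over all 27025 RefSeq symbols with a promoter, a set other than the placed genes, it was 8. The median was 23 in the 9 matched genes with at least 5000 bp of H3K27me3 in both tissues and 35 in the 9 matched genes under 5000 bp in both. Foxp1, among the latter, was classed by its point with most peaks, which need not be the start of this promoter. Foxi1, Foxi2, Foxn1, Foxn3 and Foxp3 had at most 8. The forkhead core motif TGTTTAC, on either strand, stood in 1 of 23 forkhead promoters (4.35%), that of Foxa1, and in 3.49% of all promoters.

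Within 1 kb, SMARCA4 lay at forkhead starts most often in neural tube. Within 5 kb face led, at 81.8% of starts (78.7% of other genes), with neural tube at 78.8% (55.9%). A neural tube row was within 1 kb of 26 of 33 points (78.8%, interval 61.1 to 91.0%), against 52.6% of other genes. Such a row also lay at 14 of 17 Sox, 5 of 10 Tbx and 2 of 7 Pax genes. It lay at 10 of 14 hedgehog genes and 12 of 17 genes upstream of FoxO proteins, so a high share was not particular to forkhead genes. In the other tissues the forkhead share did not exceed that of other genes beyond its interval. It was 60.6% in face (71.8% of other genes), 30.3% in forebrain (29.4%), 21.2% in heart (20.1%), 18.2% in hindbrain (17.3%), 18.2% in limb (25.5%), 3.03% in ESC (6.25%) and 0 of 33 in midbrain (1.95%), where 0 allows up to 10.6% and the median row has an FDR of 100% in the authors' table. The large controls were at 60.6% (SMARCA4 midbrain control, 64.2% of other genes) and 54.5% (EP300 face control, 63.1%). The NCOA2 control was at 24.2% (24.6%), the NCOA1 control at 3.03% (2.45%), and the SMARCC2 controls at 0 of 33 in face (0.263%) and hindbrain (2.51%).

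Neural tube rows lay at most starts of genes with long H3K27me3 in limb and forebrain. The mark was not mapped in neural tube. In forebrain it lay over 4 of these 14 points (36.5% of the 438 other such genes). Within 1 kb, the distance used for SMARCA4 here, it lay at 13 of the 14 (92.9%, 78.5%). Of the 14, 12 had a neural tube SMARCA4 row at the start (85.7%, 59.1% of the 438 other such genes), all but Foxa2 and Foxe1. Face rows were at 6 of the 14 (42.9%, 59.6%) and forebrain rows at 2 (14.3%, 25.6%). Hindbrain, limb, heart, ESC and midbrain rows were at 0 of 14, as was limb H3K27ac. Other such genes stood at 7.53% in hindbrain, 16.4% in limb, 9.82% in heart, 2.51% in ESC, 1.37% in midbrain and 19.6% for H3K27ac. The midbrain control of SMARCA4 was at 7 of the 14 (50.0%, 68.9% of other such genes) and the EP300 face control at 5 (35.7%, 60.5%). At forebrain starts with H3K27me3 and no H3K4me3 within 1 kb, neural tube SMARCA4 was present at 10 of 12 forkhead genes (83.3%) and at 40.6% of 325 other genes. The part that the width of the neural tube rows has in these shares was not tested.

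The members with SMARCA4 at the start in the most lists were broadly expressed genes and Foxp2, a neural gene. Foxn3, which acts in the cell cycle checkpoint, had it in 6 lists, all but midbrain and limb (1 of 33, 3.12% of other genes). Foxj3, Foxo3a (RefSeq Foxo3, a target of insulin signalling) and Foxp2 had it in 5 (3 of 33, 8.26% of other genes). Such breadth was thus near the share of other genes. Among broadly expressed members, Foxo4 had SMARCA4 at the start in 1 list and Foxk1, Foxo1 and Foxo6 in 3. At Foxo3a, rows of 10 FLAG lists, 7 of them of SMARCA4, merged into 1 stretch of 5850 bp over the point that also met a control. Foxa2, Foxe1, Foxi1 and Foxn1 had no SMARCA4 row at the start in any list, which is 4 of 33 against 22.3% of other genes. EP300 rows lay at 4 starts in face (12.1%, 18.7% of other genes) and at 6 in ESC (18.2%, 33.3%), NCOA2 rows at 5 (15.2%, 20.5%) and NCOA1 and SMARCC2 hindbrain rows at 0 (5.02% and 0.488%). In the authors' FDR the median row stood at 56.4% in EP300 face and 18.2% in NCOA1, so many rows of these lists are uncertain. Over the 200 best-ranked rows the medians were 0.0% and 6.44%. SMARCC2 in face was at 8 starts (24.2%, 25.4%).

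Across the whole 100 kb territory, FLAG rows were about as frequent near forkhead genes as near other genes. The mean in SMARCA4 face was 6.67 rows per forkhead gene and 5.98 per other gene, a ratio of 1.11 (0.97 to 1.27). Ratios in the other SMARCA4 lists ran from 0.68 in midbrain to 1.26 in ESC, those in the remaining FLAG lists from 0.4 in NCOA1 to 1.06 in SMARCC2 face, and every one of the 14 intervals included 1. Limb H3K27ac was lower, at 2.45 rows against 3.54 (0.69, 0.55 to 0.86). H3K27me3 was higher, at 4.12 against 2.16 rows in limb (1.9, 1.6 to 2.25) and 3.73 against 1.54 in forebrain (2.42, 2.01 to 2.89).

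The share of forkhead genes with at least 1 row within 100 kb was near that of other genes in most lists. Of the 33, SMARCA4 rows lay near 33 in face (98.0% of other genes), 33 in neural tube (90.1% of other genes), 25 in forebrain (75.8%, 71.8% of other genes) and 24 in heart (72.7%, 74.4% of other genes). The number was 22 in ESC (66.7%, 61.1% of other genes), 19 in hindbrain (57.6%, 58.9% of other genes), 17 in limb (51.5%, 63.5% of other genes) and 5 in midbrain (15.2%, 19.7% of other genes). For SMARCC2 it was 24 in face (72.7%, 74.5% of other genes) and 4 in hindbrain (12.1%, 16.4% of other genes), and for EP300 it was 12 in face (36.4%, 52.7% of other genes) and 23 in ESC (69.7%, 82.9% of other genes). In hindbrain it was 3 for NCOA1 (9.09%, 20.2% of other genes) and 14 for NCOA2 (42.4%, 53.0% of other genes). H3K27me3 stood above other genes here too, with rows near 30 in limb (90.9%, 72.6% of other genes) and 28 in forebrain (84.8%, 60.1% of other genes). Limb H3K27ac stood below, with rows near 24 genes (72.7%, 88.9% of other genes). H3K4me1 lay near 33 in limb (97.5% of other genes) and 33 in forebrain (94.6% of other genes), and H3K4me3 near 31 in limb (93.9%, 95.3% of other genes) and 30 in forebrain (90.9%, 94.3% of other genes). Control rows lay near 31 for SMARCA4 midbrain (93.9%, 94.2% of other genes), 33 for EP300 face (96.9% of other genes) and 26 for NCOA2 (78.8%, 71.3% of other genes). The small controls had rows near 7 for SMARCC2 face (21.2%, 11.8% of other genes), 5 for SMARCC2 hindbrain (15.2%, 14.7% of other genes) and 11 for NCOA1 (33.3%, 21.5% of other genes). Input rows lay near 6 for the limb methyl marks (18.2%, 18.5% of other genes), 1 for limb H3K27ac (3.03%, 7.83% of other genes) and 2 for forebrain (6.06%, 4.06% of other genes).

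**Figure D3:**
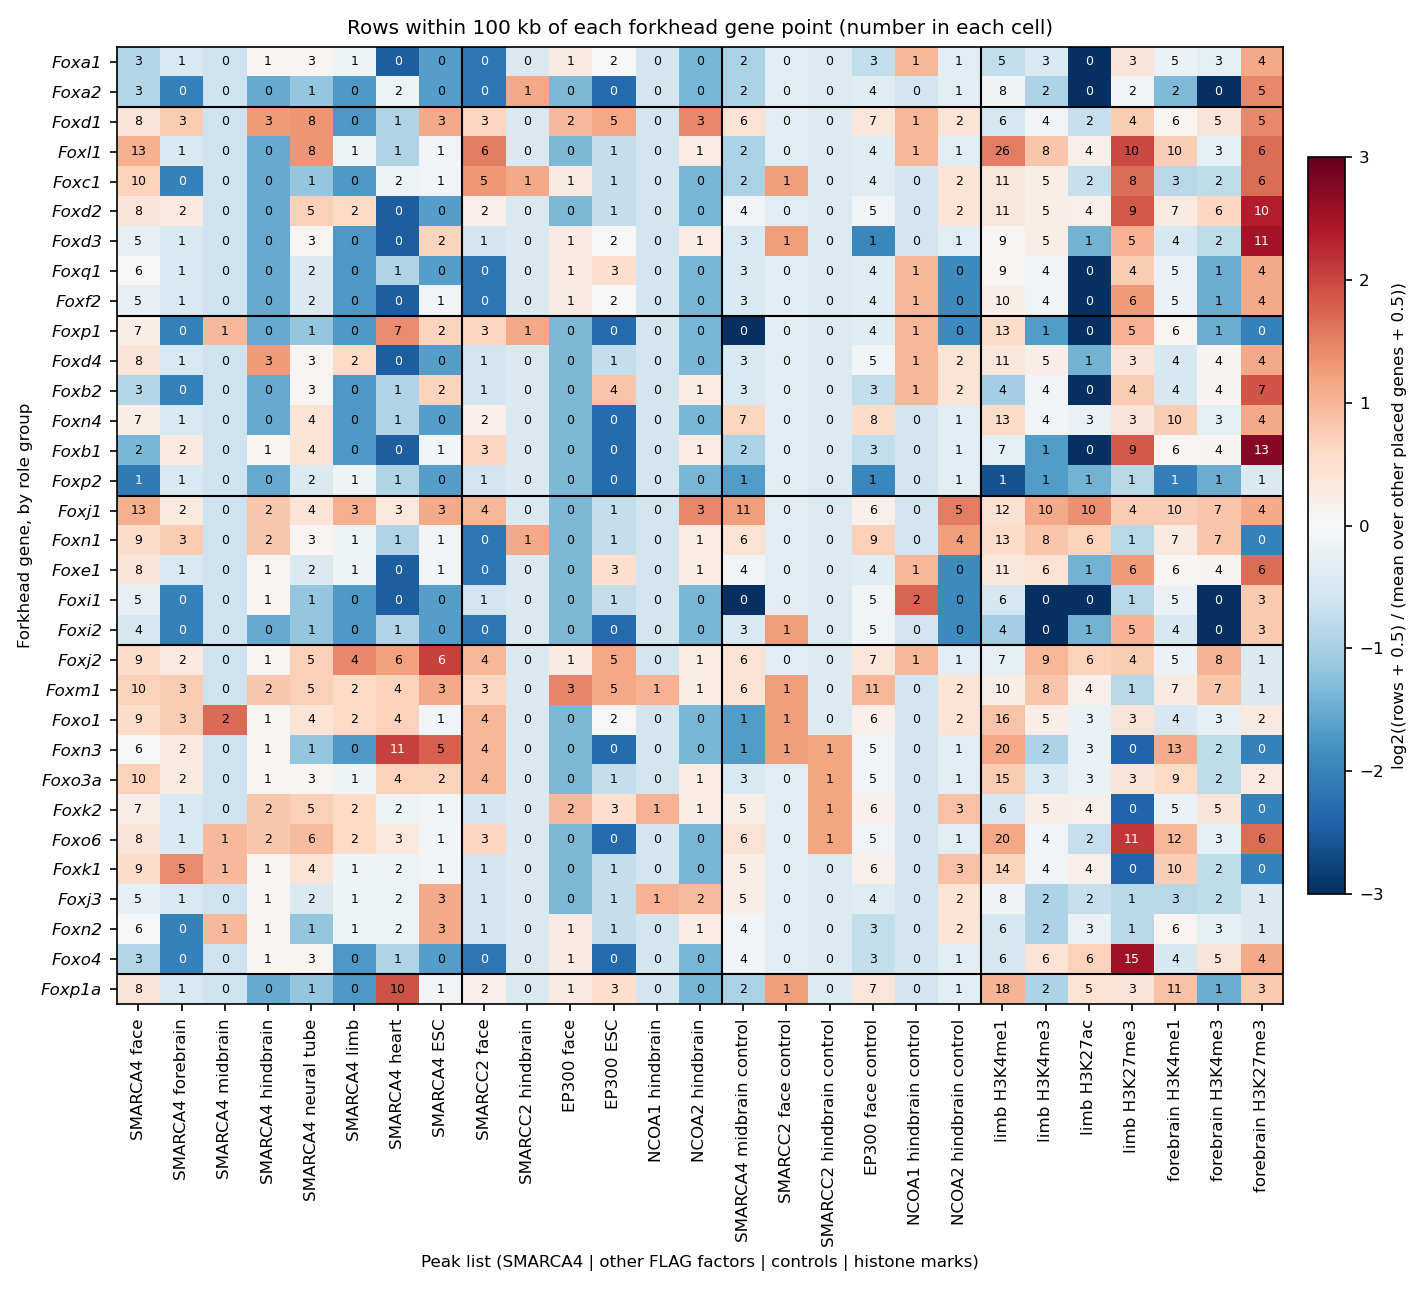
Rows within 100 kb of each of 32 forkhead points (number in each cell) in 14 FLAG, 6 control and 7 histone lists, with genes ordered by role group and then by FLAG rows, and colour showing the log2 ratio to the mean of other placed genes after adding 0.5 to both. The H3K27me3 columns are red for most genes above the broadly expressed group, and Foxn3, Foxp1a and Foxp1 stand out in the heart column with 11, 10 and 7 rows.

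These totals combined opposite values at starts and away from them. A row was called at a start where it reached within 1 kb of any placed point, so rows at starts without a placed point count as away. At starts, SMARCA4 face rows were fewer near forkhead genes, 1.67 against 2.71 per gene (ratio 0.61, 0.46 to 0.8). Away from starts they were more frequent, 5.0 against 3.27 (1.53, 1.31 to 1.78). Neural tube rows away from starts had a ratio of 1.56 (1.14 to 2.07) and SMARCC2 face rows 1.44 (1.04 to 1.93). In heart (1.19), ESC (1.34), forebrain (1.45), hindbrain (1.32) and limb (1.16) the interval included 1. Among the controls, the ratio away from starts was 1.1 for EP300 face (0.9 to 1.33) and 0.99 for SMARCA4 midbrain (0.75 to 1.27). It was 1.38 for NCOA2 (0.89 to 2.06), 1.58 for NCOA1 (0.72 to 3.01), 1.77 for SMARCC2 face (0.71 to 3.64) and 1.69 for SMARCC2 hindbrain (0.46 to 4.32), so the ratios of 1.44 to 1.56 above lie within the range of the controls, whose intervals each include 1. With rows that meet any control or input also left out, an alternative chosen after seeing the data, the ratio was 1.49 in face (1.22 to 1.79), 1.69 in neural tube (1.15 to 2.4) and 1.39 in SMARCC2 face (0.92 to 2.01). In SMARCA4 limb it was 0.0 (0.0 to 1.18), with 0 such rows near forkhead genes.

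**Figure D4:**
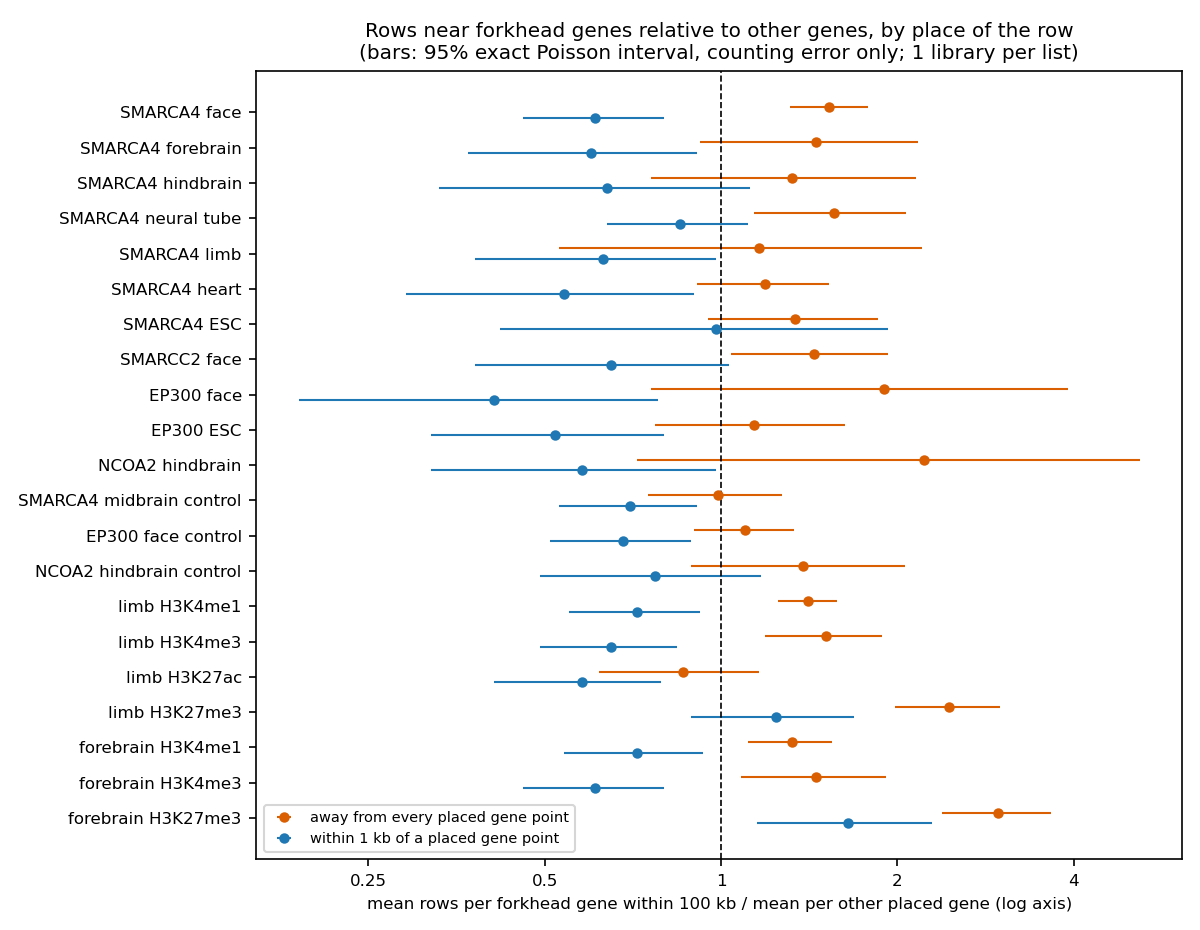
Mean rows per forkhead gene within 100 kb divided by the mean per other placed gene (log axis), for rows within 1 kb of a placed gene point and rows away from every such point, with 95% exact Poisson intervals, in lists with at least 5 rows of each kind. Points away from starts lie to the right of those at starts in every list shown, controls included, and the H3K27me3 lists lie farthest to the right.

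Forkhead genes also had fewer neighbours, with a mean of 2 other placed genes within 100 kb against 2.73 for other genes (medians of 2 in both). The part that this has in the ratios was not tested. Of 699 FLAG rows in the 33 territories, 99 (14.2%) lay at the gene's own start, 149 (21.3%) at a start of another gene and 451 (64.5%) at neither. The same shares for other genes are not given here, so these describe forkhead territories alone. A row in overlapping territories is counted for each gene. A ratio above 1 away from starts was likewise seen for Tbx (1.96), Pax (1.57) and Sox genes (1.69) in SMARCA4 face. The H3K4me1 lists, a mark of enhancers, had ratios away from starts of 1.41 in limb (1.25 to 1.58) and 1.32 in forebrain (1.11 to 1.55).

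Members varied widely in their FLAG rows, up to 44 over the 14 lists, and none had 0. The 12 genes with the most were Foxj2 (44), Foxm1 (42), Foxd1 (39), Foxj1 (38), Foxl1 (33), Foxo1 (32), Foxn3 (30), Foxo3a (29), Foxk2 (28), Foxo6 and Foxp1a (27 each) and Foxk1 (26). For Foxm1, a driver of mitotic genes, 24 of the 42 rows were at starts of other genes, and for Foxj1, the regulator of motile cilia, 17 of 38. For Foxj2 31 of 44 and for Foxl1, a gene of gut mesenchyme, 26 of 33 rows lay away from every placed point. Foxf1a, on chromosome 8 like Foxl1, has no point, and Foxc2 is under no symbol, so rows at their starts are not recognised as such. Among the lowest, Foxi2 had 6 rows, and Foxa2 and Foxp2 had 7 each.

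The SMARCA4 rows of these 12 genes are given here by list. Other genes averaged 5.98 rows in face, 2.87 in neural tube and 0.266 in midbrain. A higher count in a larger list is thus not by itself a difference between tissues. Foxj2 had 9 in face, 2 in forebrain, 0 in midbrain, 1 in hindbrain, 5 in neural tube, 4 in limb, 6 in heart and 6 in ESC. For Foxm1 there were 10 in face, 3 in forebrain, 0 in midbrain, 2 in hindbrain, 5 in neural tube, 2 in limb, 4 in heart and 3 in ESC. Foxd1 had 8 in face, 3 in forebrain, 0 in midbrain, 3 in hindbrain, 8 in neural tube, 0 in limb, 1 in heart and 3 in ESC. By percentile among other genes, Foxd1 ranged from 18.2 in limb to 96.4 in neural tube and stood at 73.1 in face. Foxj2 ranged from 40.1 in midbrain to 99.9 in ESC. The cilia gene Foxj1 had 13 in face, 2 in forebrain, 0 in midbrain, 2 in hindbrain, 4 in neural tube, 3 in limb, 3 in heart and 3 in ESC. Foxl1 had 13 in face, 1 in forebrain, 0 in midbrain, 0 in hindbrain, 8 in neural tube, 1 in limb, 1 in heart and 1 in ESC. Foxo1, a target of insulin signalling, had 9 in face, 3 in forebrain, 2 in midbrain, 1 in hindbrain, 4 in neural tube, 2 in limb, 4 in heart and 1 in ESC. Outside face and neural tube Foxl1 had at most 1 row per list. Foxn3 had 6 in face, 2 in forebrain, 0 in midbrain, 1 in hindbrain, 1 in neural tube, 0 in limb, 11 in heart and 5 in ESC. Foxo3a had 10 in face, 2 in forebrain, 0 in midbrain, 1 in hindbrain, 3 in neural tube, 1 in limb, 4 in heart and 2 in ESC. Foxk2 had 7 in face, 1 in forebrain, 0 in midbrain, 2 in hindbrain, 5 in neural tube, 2 in limb, 2 in heart and 1 in ESC. Heart held more rows of Foxn3 than any other tissue. Foxo6 had 8 in face, 1 in forebrain, 1 in midbrain, 2 in hindbrain, 6 in neural tube, 2 in limb, 3 in heart and 1 in ESC. Foxp1a had 8 in face, 1 in forebrain, 0 in midbrain, 0 in hindbrain, 1 in neural tube, 0 in limb, 10 in heart and 1 in ESC. Foxk1 had 9 in face, 5 in forebrain, 1 in midbrain, 1 in hindbrain, 4 in neural tube, 1 in limb, 2 in heart and 1 in ESC. Heart was also the highest list for Foxp1a, and Foxk1 had the most forebrain rows of all members. In hindbrain, Foxd1 and Foxd4 led with 3 rows each, and in midbrain, where 5 members had a row, Foxo1 led with 2. The leading genes elsewhere were Foxj1 and Foxl1 in face (13 each), Foxk1 (5) and Foxd1 (3, tied) in forebrain, Foxd1 and Foxl1 in neural tube (8 each), Foxj2 (4) and Foxj1 (3) in limb, Foxn3 (11) and Foxp1a (10) in heart, and Foxj2 (6) and Foxn3 (5) in ESC. Foxl1 also had 26 limb H3K4me1 rows.

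Some stretches away from starts were held by several lists. Near Foxj2, a stretch of 4900 bp at -52878 bp from the point (negative toward lower coordinates) held rows of 8 FLAG lists, 6 of them of SMARCA4, and also met a control or input. Near Foxo1, a stretch of 3564 bp at -69731 bp held rows of 6 SMARCA4 lists and met one too. Near Foxd1, stretches at 10901 and 35451 bp each held rows of 6 FLAG lists, again with a control or input. Near Foxp1, a stretch of 3575 bp at -59880 bp (mm9 chr6:99153054-99156629) held SMARCA4 rows of face, midbrain, heart and ESC and a SMARCC2 face row, and met no control or input list.

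Heart SMARCA4 rows gathered around Foxp1 and Foxn3. Foxp1, a repressor with roles in heart and neural development, had 4 placed points in the tables, and Foxp1a another beside one of them. The authors gave 14 of the 13755 heart rows to Foxp1, 7 to Foxn3, 7 to Foxl1 and 54 to all forkhead genes (0.393% of the list). Forkhead symbols are 38 of the 18835 in the tables. Of the large controls, EP300 face gave 10 of 28895 rows to Foxp1 and 91 to all forkhead genes (0.315%). The SMARCA4 midbrain control gave 1 of 19772 and 53 (0.268%). The strongest of the 54 heart rows (mm9 chr6:99045216-99047341) was given to Foxp1 at 66666 bp. It had 194 tags, a fold enrichment of 8.2 and rank 39 by the authors' score, while the median heart row had 37 tags. Its FDR in the authors' table was 10.87%, beside a median of 0.65% over the list and 5.61% over the 200 best-ranked heart rows. The same place held a SMARCC2 face row (280 tags, rank 118 of 11321), H3K4me1 regions of limb and forebrain and a limb H3K4me3 region, and no control or input row overlapped it. The other 13 heart rows given to Foxp1 had between 20 and 83 tags. For Foxn3 the best heart row (mm9 chr12:100544186-100545174, 15368 bp from a point, 134 tags, rank 121, FDR 4.9%) also lay on a SMARCC2 face row and on no control or input.

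In ESC the best forkhead row of SMARCA4 was again given to Foxn3, with 30 tags against a list median of 9 and rank 132 of 6764. Foxd3, a factor of pluripotent cells and neural crest, received 4 ESC SMARCA4 rows with 6 to 26 tags, the nearest 13230 bp from its point, and none lay at its start. Foxl1 received 7 heart rows, the strongest with 180 tags, rank 144 and an FDR of 4.12% at 114370 bp, and 8 SMARCC2 face rows. In SMARCC2 face, 49 rows were given to forkhead genes (0.433% of the list). Median conservation, as the authors' score per row, was 433 for the 54 heart rows and 335 for the whole heart list, and 432 and 292 in ESC. It was higher for forkhead rows in 7 of the 10 FLAG tables and in 5 of the 6 control tables, among them the EP300 face control (435 and 386). It was lower for EP300 face (414 and 434), NCOA1 (306 and 383) and NCOA2 (435 and 449).

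Foxq1, Foxf2 and Foxc1 lie side by side on chromosome 13, with 67342 bp between the points of Foxq1 and Foxf2 and 180867 bp between those of Foxf2 and Foxc1, so their territories overlap. Each point lay under its own limb H3K27me3 region, of 15866, 21276 and 33201 bp. Each also had a neural tube SMARCA4 row at the start, and none had a limb, heart or ESC SMARCA4 row there. Foxc1 differed from its neighbours in having 10 SMARCA4 face rows and 5 SMARCC2 face rows within 100 kb, against 6 and 0 for Foxq1 and 5 and 0 for Foxf2. It was also the only one of these 3 with limb H3K27ac within 100 kb, with 2 rows.

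**Figure D5:**
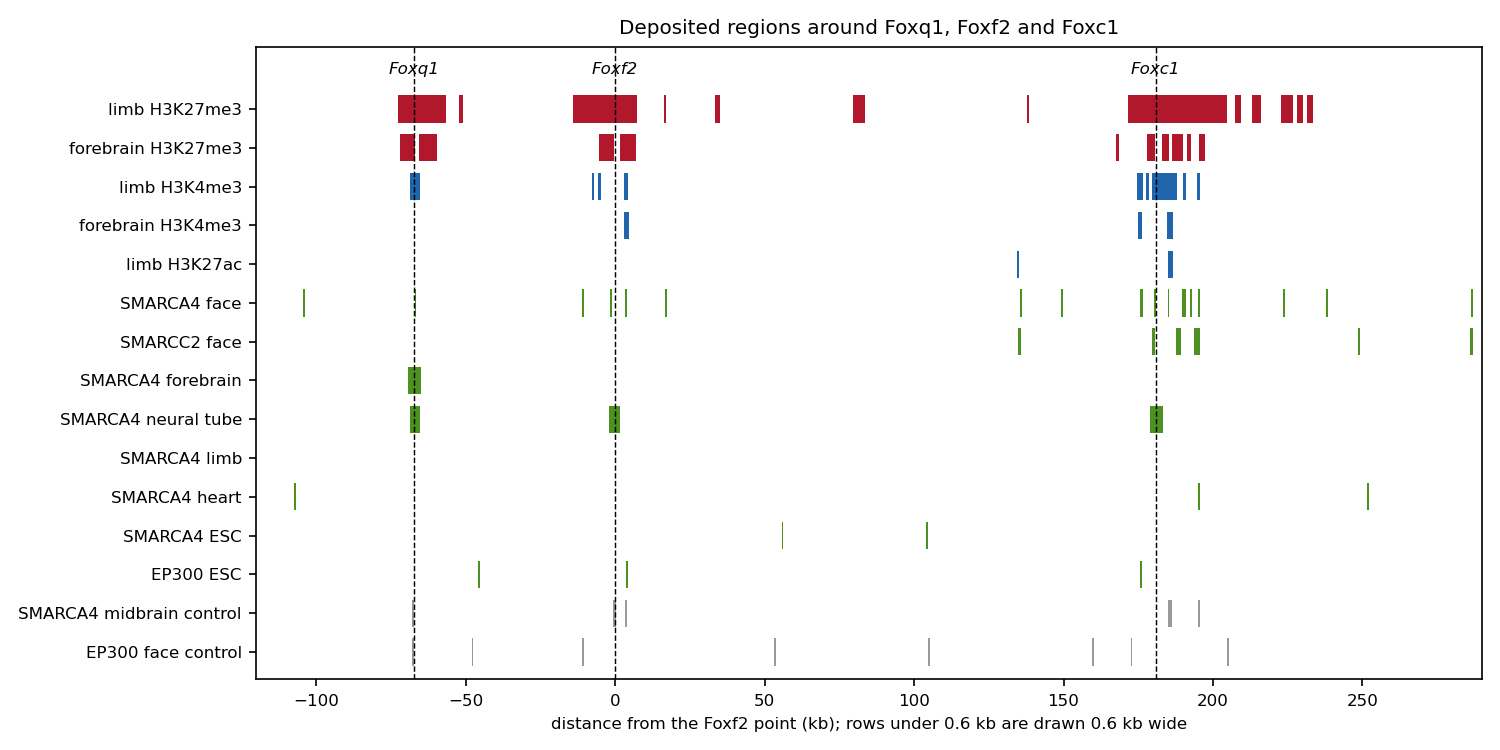
Deposited regions of 15 lists by distance in kb from the Foxf2 point, with dashed lines at the points of Foxq1, Foxf2 and Foxc1 and grey bars for controls. Limb H3K27me3 (red) spans each of the 3 points, and face rows of SMARCA4 and SMARCC2 (green) cluster around Foxc1.

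The 5 forkhead genes without a point were looked at from their only summit. Foxf1a (RefSeq Foxf1, a gene of gut and lung mesenchyme), whose summit lay 2479 bp from the start, had 17718 bp of H3K27me3 in limb and 12049 bp in forebrain within 10 kb. Foxl2, a gene of ovary and eyelid, had 18302 and 13929 bp, and Foxh1, a partner of Smad proteins in early embryos, had 8334 and 1521 bp. Foxp3, the regulator of regulatory T cells, had 0 bp in both, from a summit 9237 bp away, and Foxr1 had 858 and 0 bp.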

How the data were processed

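Peak and region lists of 30 of the 34 samples were used, all mapped to mm9 with BWA per the submitters' processing notes. The peak caller is not given in the sources used here. The 16 deposited tables give, per the file headers, a tag count per peak, a score made from the log10 of p, a ratio called fold enrichment and a conservation score as the authors made them, with an FDR in percent for some. The other 14 lists were deposited with positions and a rank score alone, and placed no gene. Only 1 library was deposited per group, library depth is unknown, and no test was made.

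A gene point is the summit plus or minus the authors' distance on which at least 2 peaks agree, and of several points the one with most peaks was used. Rows overlapping 100 kb to either side by at least 1 bp were counted. Covered length was summed within 10 kb. Start shares use 1 kb. The members, role groups and gene lists were chosen with earlier results of these data known. Named with values in each SMARCA4 list are the 12 members with the most FLAG rows and the leading 2 of each list, and genes under H3K27me3 in 1 tissue alone are named. The alternatives were territories of 50 and 200 kb, row midpoints, the better part of each list, rows at starts or in controls left out, merged territories, added genes and the authors' nearest gene. Counting was tested on simulated data. Python 3.11.15, numpy 2.4.6, pandas 2.3.3 and scipy 1.17.1 were used. The values of 1 placed member are not reported here, although it enters the counts and means.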

Additional observations from a re-analysis of the deposited data

How the results depend on the processing

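No paired analysis was possible because each group has 1 library. Of 288 values under alternatives, 230 moved by less than their counting interval, 57 moved more and 1 went from an interval below 1 to above 1. Of the 254 ratios among them, 47 fell on the other side of 1 from the reported value, and in all but that 1 the reported interval included 1. The cause was not tested. Territories of 200 kb, row midpoints, merged territories and added genes moved none beyond its interval. With rows within 1 kb of any gene point left out, the ratio was 1.53 in SMARCA4 face, 1.45 in forebrain, 1.32 in hindbrain, 1.56 in neural tube, 1.16 in limb, 1.44 in SMARCC2 face, 1.9 in EP300 face, 1.14 in EP300 ESC, 1.2 in NCOA1, 2.22 in NCOA2, 1.1 in the EP300 face control and 1.38 in the NCOA2 control. For limb it was 1.41 in H3K4me1, 1.51 in H3K4me3 and 2.45 in H3K27me3, and for forebrain 1.32, 1.45 and 2.97. With rows that overlap a control or input left out it was 1.38 in SMARCA4 face, 1.7 in neural tube, 0.46 in limb, 1.38 in SMARCC2 face, 1.32 in EP300 face and 1.96 in NCOA2. With both kinds left out, an alternative chosen after seeing the data, it was 1.49 in SMARCA4 face, 1.69 in neural tube, 0.0 in limb, 1.22 in heart, 1.39 in SMARCC2 face, 2.11 in EP300 face, 1.12 in EP300 ESC, 1.56 in NCOA1 and 3.87 in NCOA2. In the better part of each list it was 0.62 in SMARCA4 forebrain, 0.72 in neural tube, 0.71 in heart, 0.0 in NCOA1, 0.6 in limb H3K4me3, 1.45 in limb H3K27me3, 0.54 in forebrain H3K4me3, and 0.0 in the limb H3K27ac input and the forebrain input. At 50 kb it was 2.97 for forebrain H3K27me3 and 0.0 for the limb H3K27ac input. By rows per symbol under the authors' nearest gene, relative to other symbols, it was 1.95 in SMARCA4 heart, 2.15 in SMARCC2 face, 1.11 in EP300 face, 1.34 in EP300 ESC, 1.3 in NCOA2, 1.56 in the EP300 face control and 1.9 in the NCOA2 control, and 1.33 in the SMARCA4 midbrain control, which had been below 1. In the better part of the lists 15.2% of points lay over both limb marks and 27.3% over forebrain H3K4me3. Within 1 kb, 57.6% had forebrain H3K27me3 and 21.2% both forebrain marks. At 5 kb, SMARCA4 face was at 81.8% of starts (78.7% of other genes) and the EP300 face control at 78.8% (71.9%). SMARCA4 neural tube stayed at 78.8% (55.9%), so face and not neural tube was then the most frequent. Counts near forkhead genes were as low as 3 rows in NCOA1 and 4 in SMARCC2 hindbrain, where differences were not detectable.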
